A study of Mus musculus with 24 samples.

Results

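The transcripts described here encode the nuclear-encoded subunits of the mitochondrial respiratory chain and ATP synthase in C2C12 myotubes, fused contractile cells formed by a mouse muscle line. Members were chosen by symbol among protein-coding genes of the table of normalized counts: Ndufa, Ndufb, Ndufc, Ndufs and Ndufv genes with a number, Sdha to Sdhd, Uqcr genes, Cyc1, Cox5 to Cox8 genes and Atp5 genes, without assembly factors and Ndufa4l2. Of 83 such genes, 79 reached 10 normalized counts in 6 or more of the 24 libraries, a filter that 14541 of all 55487 genes passed. They comprised 36 genes of complex I, 4 of complex II, 9 of complex III, 13 of 16 of complex IV and 17 of 18 of complex V. The 4 genes below the filter were Cox6b2, Cox7b2, Cox8c and a second copy of Atp5o. Atp5s, which is not a structural subunit, and Cox7a2l, which joins complexes III and IV, matched the symbols and were kept, as was Ndufa4, which is counted by its symbol in complex I although its protein is now placed in complex IV.

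The 4 groups each held 6 libraries of wild-type C2C12 myotubes at day 5, all differentiated under 5 % O2. Myotubes were exposed for 2 h to 5 % O2 or to 1 % O2. Stimulated myotubes (5 % STIM and 1 % STIM) then received repeated short bouts of electrical pulses, and controls (5 % CTRL and 1 % CTRL) received none. All groups derive from this single cell line, and the labels do not say whether the 6 samples of a group were cultured on separate days, so that the p-values measure the spread between these samples.

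Complex I takes electrons from NADH and complex II from succinate, and both pass them to coenzyme Q. Complex III transfers them from coenzyme Q to cytochrome c, and complex IV from cytochrome c to O2. Complexes I, III and IV pump protons, and complex V (ATP synthase) uses the resulting gradient to phosphorylate ADP. Most subunits are encoded in the nucleus, while a few hydrophobic core subunits of complexes I, III, IV and V are encoded in mitochondrial DNA. Muscle has its own isoforms of several complex IV subunits.

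Libraries held 26541858 to 28173745 reads, of which the 79 members took 0.485 % to 0.607 %. All 10 myotube markers were detected in every library, among them Myh3 (embryonic myosin heavy chain, normalized counts of 97211 to 144842) and Ckm (muscle creatine kinase, 7319 to 9708). Of the 5 markers of other tissues, Alb, Ptprc, Pecam1 and Epcam stayed between 0 and 5.72 normalized counts and failed the filter, while Tubb3 lay between 453 and 1409. Libraries differed in how their counts followed gene length. The slope, over all genes tested, of the log2 deviation from the gene mean on log2 exonic length was highest in replicate 1 of 1 % CTRL (0.0945), followed by replicate 3 of 1 % STIM (0.0550), replicate 5 of 5 % CTRL (0.0416) and replicate 1 of 5 % CTRL (0.0305). The members are short: their median exonic length was 1675 bases, against 4180 bases over all genes tested.

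The mean deviation of the 79 members from their own means over 24 libraries followed this order. The lowest values belonged to the same 4 libraries, −0.38 in replicate 1 of 1 % CTRL, −0.28 in replicate 3 of 1 % STIM, −0.23 in replicate 5 of 5 % CTRL and −0.19 in replicate 1 of 5 % CTRL, on the log2 scale. The library with the lowest slope (−0.0367, replicate 6 of 1 % CTRL) had the highest member level (0.19). The 6 libraries of 5 % STIM all had slopes below 0, and their member levels lay between 0.04 and 0.15. In the other groups the levels ranged from −0.23 to 0.09 (5 % CTRL), from −0.38 to 0.19 (1 % CTRL) and from −0.28 to 0.14 (1 % STIM), so that all groups overlapped. The counts and medians of the members are given below with and without these libraries where they moved.

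**Figure D1:**
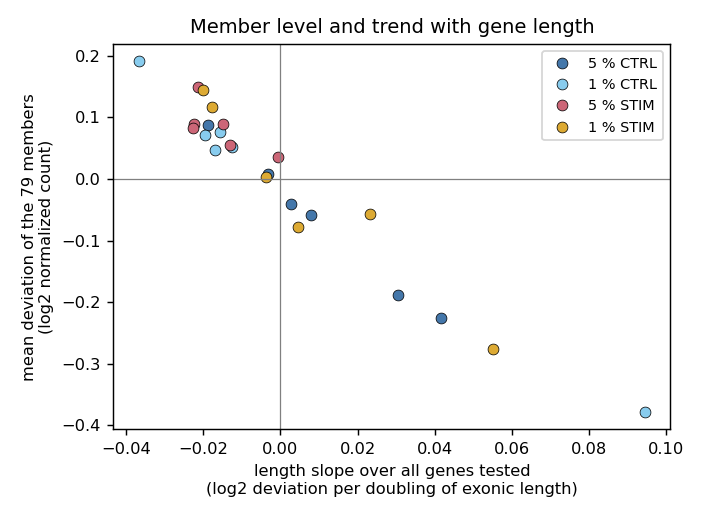
Mean log2 deviation of the 79 members in each of 24 libraries (vertical axis) against the length slope of the library over the genes tested (horizontal axis), 1 point per library, coloured by group. The 4 libraries with a slope over 0.03 have the 4 lowest member levels.

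The level of each complex by library showed where this spread was widest. Complex IV, whose genes were the shortest (median exonic length of 944 bases), varied most within 1 % CTRL, with an SD of 0.31 (n = 6) and values from −0.61 to 0.29 on the log2 scale. Complex II, whose genes were the longest (median of 2744.5 bases), varied least there, with an SD of 0.04 (n = 6) and values from −0.09 to 0.03. Complexes I, III and V had SDs of 0.19, 0.24 and 0.14 (n = 6 each) in this group. In 5 % STIM, the SDs of the 5 complexes lay between 0.03 and 0.08.

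**Figure D2:**
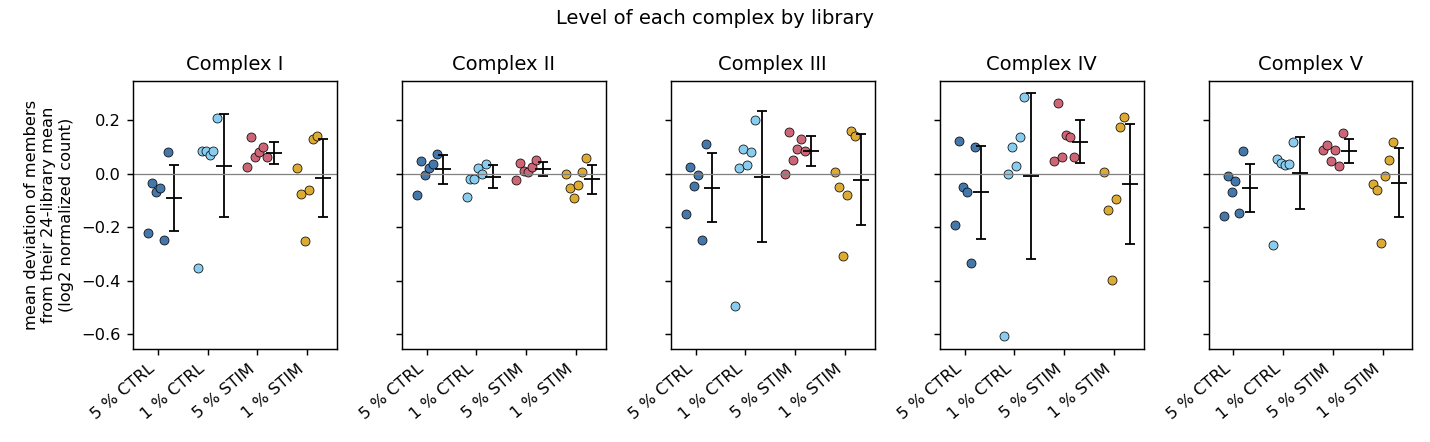
Mean log2 deviation of the members of each complex from their means over 24 libraries, 1 point per library, with the mean and SD of each group of 6 beside the points. The 5 % STIM libraries lie close together, replicate 1 of 1 % CTRL is the lowest point of every panel except that of complex II, and the groups overlap in each complex.

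Per kilobase of exon, the members with the highest mean normalized count over 24 libraries of complexes II to V were Sdha in complex II (1679 per kb), Uqcrb in complex III (2337 per kb), Cox6b1 in complex IV (2394 per kb) and Atp5b in complex V (6315 per kb). Sdha is the flavoprotein that oxidizes succinate, Uqcrb is a small subunit near the Q site of complex III, Cox6b1 sits between the monomers of complex IV, and Atp5b is the catalytic β subunit of ATP synthase. With the median length of coding transcripts in place of merged exons, Uqcrh took the place of Uqcrb, and the other 3 genes stayed highest. The lowest levels per kilobase of exon were those of Ndufb4 (24.2 per kb), Sdhc (316 per kb), Uqcrq (471 per kb), Cox7a1 (120.1 per kb) and Atp5s (32.9 per kb). Atp5s is not a structural subunit, and the lowest subunit of complex V was Atp5g2 (53.4 per kb). With transcript lengths, Sdhb and Uqcrfs1 were lowest in complexes II and III, and the lowest genes of the other complexes stayed the same.

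Promoters of respiratory chain genes are known for binding sites of NRF1 and of ETS family factors such as GABP. Hypoxia acts through HIF, whose core site is ACGTG or GCGTG, and only the form ACGTG was searched. RefSeq promoter sequences (GRCm38.p6) were matched to 66 of the 79 members, and the 250 bases before the start were searched on both strands for 3 motifs, none of which contains another. The NRF1 palindrome, GCGCA and GCGC separated by any base, was in 13 of 66 member promoters (19.7 %), against 4.23 % of 27025 genes with a promoter. CCGGAAG, an ETS site, was in 12 (18.2 %), against 7.83 % of all genes, and ACGTG was in 15 (22.7 %), against 18.5 % of all genes. By complex, ACGTG was in 4 of 32 promoters of complex I, 1 of 3 of complex II, 1 of 5 of complex III, 2 of 11 of complex IV and 7 of 15 of complex V, and the NRF1 palindrome in 6, 2, 0, 1 and 4 of these. The 27025 genes were not limited to those that passed the count filter, so these shares do not set the members against other expressed genes. A match describes the letters only and does not show binding. The upstream sequences of 3 members called in the comparison of 1 % CTRL with 5 % CTRL are shown. Ndufv3 rose most, and Sdha was the member that fell. Atp5g1 was picked because it holds ACGTG, so its match was fixed by the choice and is not a result about its rise. Capitals mark matches to the NRF1 palindrome or ACGTG on either strand.
Ndufv3 (chr17:31519865-31520114, plus strand): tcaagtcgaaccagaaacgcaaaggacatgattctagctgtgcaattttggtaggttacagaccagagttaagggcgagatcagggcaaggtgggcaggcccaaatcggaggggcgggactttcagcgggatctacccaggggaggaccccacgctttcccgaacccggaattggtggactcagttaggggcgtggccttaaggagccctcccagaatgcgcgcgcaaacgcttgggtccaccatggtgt
Sdha (chr13:74350281-74350490, minus strand): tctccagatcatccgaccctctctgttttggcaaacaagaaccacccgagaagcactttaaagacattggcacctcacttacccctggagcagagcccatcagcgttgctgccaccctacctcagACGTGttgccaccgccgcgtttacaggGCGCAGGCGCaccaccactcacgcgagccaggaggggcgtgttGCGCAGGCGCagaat
Atp5g1 (chr11:96075671-96075881, minus strand): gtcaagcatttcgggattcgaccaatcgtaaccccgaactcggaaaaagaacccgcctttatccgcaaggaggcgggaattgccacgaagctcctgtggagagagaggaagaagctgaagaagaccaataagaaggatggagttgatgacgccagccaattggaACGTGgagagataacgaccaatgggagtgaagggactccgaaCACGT
These windows of 250, 210 and 211 bases end before the outermost annotated start. In them, Ndufv3 held neither marked motif, Sdha held 2 matches to the NRF1 palindrome and 1 to ACGTG, and Atp5g1 held 2 matches to ACGTG and none to the NRF1 palindrome. The windows of Ndufv3 and Sdha also hold GCGTG, which was not marked.

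The first comparison asked how 2 h under 1 % O2 changed these transcripts in unstimulated myotubes. In 1 % CTRL against 5 % CTRL, 7 members were higher and 1 was lower (limma, adjusted p under 0.05 over 14541 genes). This is 8 of 79, where 59.9 % of all genes tested were called, 29.4 % higher and 30.5 % lower. Of the 8, 6 encode subunits of complex I: Ndufv3, Ndufa12, Ndufb4, Ndufb2, Ndufa8 and Ndufv2. The others were Sdha, which was lower, and Atp5g1, which was higher. No member had groups without overlap, against 38.2 % of all genes tested (18.2 % higher and 19.9 % lower). The median log2 fold change was 0.05 over the members and 0.00 over all genes tested, and it was 0.12 in complex I, −0.02 in complex II, 0.03 in complex III, 0.05 in complex IV and 0.03 in complex V. With the length slope as covariate, the medians from complex I to V were 0.06, −0.04, −0.02, −0.01 and 0.01. With the slope from transcript lengths they were −0.01, −0.06, −0.10, −0.09 and −0.03.

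Ndufv3, an accessory subunit of the NADH-oxidizing module of complex I (chromosome 17, 31520115 to 31531331, GRCm38), rose most. Its normalized counts in 5 % CTRL were 701 at the lowest, 849 at the median and 951 at the highest, and in 1 % CTRL they were 874, 1229 and 1277. Replicate 1 of 1 % CTRL was the low library, while the other 5, from 1219.6 to 1277, all lay above 5 % CTRL. The log2 fold change was 0.49 (standard error, SE, 0.10, limma adjusted p = 0.000176), and it was called in all 24 fits that left out 1 library and under all 11 alternative settings, with log2 fold changes from 0.34 to 0.57 under the latter. No 75-base word of its exons occurs in another gene.

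Ndufa12, an accessory subunit of the same peripheral arm (chromosome 10, 94198720 to 94221443), had normalized counts of 400.02, 486 and 605 (lowest, median and highest) in 5 % CTRL and 426, 691 and 797 in 1 % CTRL. The groups overlapped through replicate 1 of 1 % CTRL, the lowest of its group. The log2 fold change was 0.40 (SE 0.15, limma adjusted p = 0.0255). Of its 75-base words, 14.6 % occur in a processed pseudogene, so that its count is uncertain to that extent. The call was kept in 19 of 24 fits that left out 1 library, and the log2 fold change was 0.19 with the slope from transcript lengths as covariate (limma adjusted p = 0.019).

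Ndufb4, a membrane arm subunit with the lowest level of complex I, had 31.1, 38.3 and 51.3 normalized counts in 5 % CTRL and 43.2, 48.7 and 62.04 in 1 % CTRL. Its log2 fold change of 0.34 (SE 0.14, limma adjusted p = 0.0367) was kept in 6 of 11 alternatives, with adjusted p up to 0.205. It was kept in 19 of 24 fits that left out 1 library, and 17.2 % of its words occur elsewhere in the genome's genes. Ndufb2, another membrane arm subunit, had 197, 224 and 255 in 5 % CTRL and 253, 270.1 and 306 in 1 % CTRL, so that the groups overlapped only at their edges. Its log2 fold change of 0.29 (SE 0.07, limma adjusted p = 0.000959) was kept in all 11 alternatives. Ndufa8 and Ndufv2, named after their values were seen, had log2 fold changes of 0.18 (limma adjusted p = 0.0051) and 0.17 (limma adjusted p = 0.00983).

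Sdha, on chromosome 13 from 74322254 to 74350280, moved the other way. Its normalized counts were 7003, 7258 and 7464 (lowest, median and highest) in 5 % CTRL and 6555, 6704 and 7293 in 1 % CTRL. The highest 1 % CTRL value was that of replicate 1, the library that was lowest in most other members. The log2 fold change was −0.10 (SE 0.03, limma adjusted p = 0.00341). Under scaling to equal totals it was −0.02 (limma adjusted p = 0.557), while 10 of 11 alternatives kept the call.

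Replicate 1 of 1 % CTRL decided the count in this comparison. Without it, 27 members were higher and 1 was lower, where 61.6 % of all genes tested were called, 30.7 % higher and 30.9 % lower, and the 8 calls above were all kept. Of the 27, 19 were genes of complex I, 2 of complex III, 3 of complex IV and 3 of complex V, and the median log2 fold change of the members was 0.16. With that library kept, the median was 0.020 without replicate 1, 0.07 without replicate 2 and 0.08 without replicate 6 of 5 % CTRL. Without the 4 libraries with a slope over 0.03 it was 0.07, with 12 higher and 1 lower (29.1 % and 29.4 % of all genes). Among the genes added by leaving out replicate 1 of 1 % CTRL were Ndufb8 (0.22, limma adjusted p = 0.00731), Cox6b1 (0.21, limma adjusted p = 0.0107) and Atp5k (0.56, limma adjusted p = 0.0163). Under scaling of all libraries to equal totals, which raised the median of all genes to 0.08, 20 members were higher and none lower (39 % and 23.2 % of all genes, 62.2 % in all). When the fit held the length slope as a covariate, 7 were higher and 3 lower (30.8 % and 31.6 % of all genes), with the median at 0.02, and with the slope taken from transcript lengths 6 were higher and 15 lower (29.9 % and 31.1 % of all genes), with the median at −0.04. The direction of the members as a whole thus changed with the length measure, while Ndufv3 kept its call in each of these fits.

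**Figure D3:**
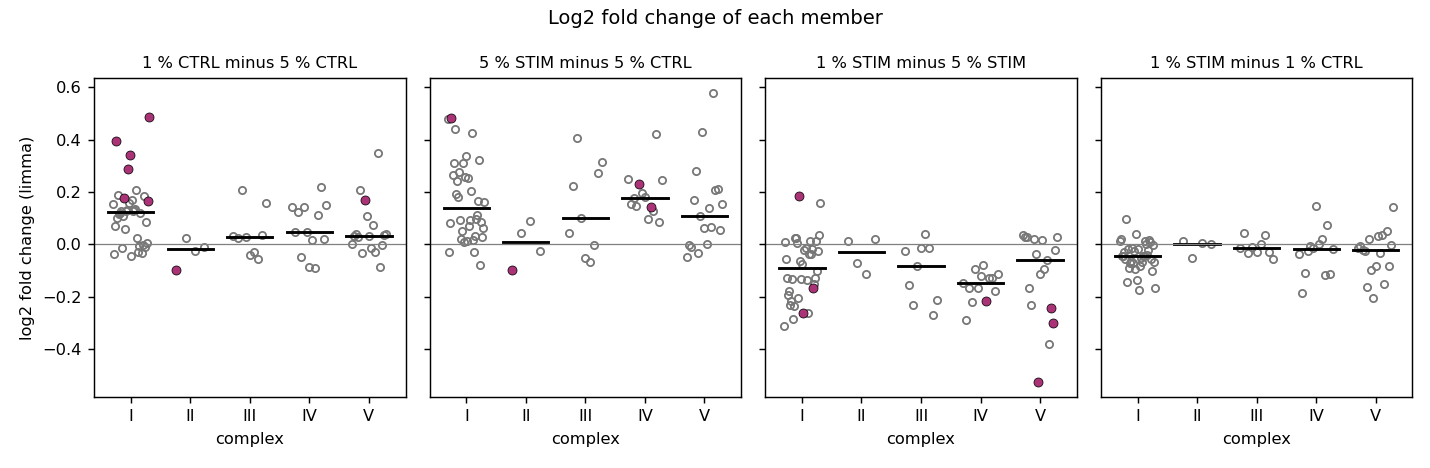
Log2 fold change of each of the 79 members in 4 comparisons (limma, vertical axis), grouped by complex (horizontal axis). The fit shown held no length slope as covariate. Filled points passed an adjusted p of 0.05 and bars mark the median of each complex; in complex IV all 13 members lie above 0 in 5 % STIM minus 5 % CTRL and all 13 lie below 0 in 1 % STIM minus 5 % STIM, 2 comparisons that share the 5 % STIM libraries.

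The second comparison asked how stimulation acted under 5 % O2. In 5 % STIM against 5 % CTRL, 3 members were higher and 1 was lower (limma, adjusted p under 0.05), against 21.4 % of all genes tested, 9.44 % higher and 12 % lower. Cox6b1, Cox7a2l and Ndufa12 rose and Sdha fell. Without regard to the test, 67 of 79 members had a log2 fold change above 0, against 47.6 % of all genes tested, and the median was 0.14 over the members and −0.01 over all genes. It was 0.14 in complex I, 0.01 in complex II, 0.10 in complex III, 0.18 in complex IV and 0.11 in complex V. With the length slope as covariate, these medians were 0.03, −0.03, −0.02, 0.03 and 0.003. In 5 members every 5 % STIM library lay above every 5 % CTRL library (Ndufa12, Ndufs6, Cox6b1, Atp5k and Atp5mpl), where this held for 5.64 % of all genes tested, and no member showed the opposite (5.44 % of all genes), out of 11.1 % in either direction.

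Ndufa12 had normalized counts of 641, 700.5 and 733 (lowest, median and highest) in 5 % STIM, above the highest 5 % CTRL library at 605. Its log2 fold change was 0.48 (SE 0.15, limma adjusted p = 0.0224). Cox6b1, on chromosome 7 from 30616861 to 30626151, had 1371, 1572 and 1708 in 5 % CTRL and 1717, 1810.1 and 1936 in 5 % STIM, so that the groups met without overlap. Its log2 fold change was 0.23 (SE 0.08, limma adjusted p = 0.0379), and it was called in 16 of 24 fits that left out 1 library. With the length slope as covariate, the log2 fold change of Cox6b1 was 0.12 (limma adjusted p = 0.0112) and that of Ndufa12 was 0.29 (limma adjusted p = 0.00342), both smaller and still called. Cox7a2l, on chromosome 17 from 83501918 to 83517330, had 1240.4, 1347 and 1457 in 5 % CTRL and 1435, 1490.3 and 1528 in 5 % STIM. Its log2 fold change was 0.14 (SE 0.04, limma adjusted p = 0.0183), and 10.4 % of its words occur in other genes. In Sdha the 5 % STIM libraries had 6640.2, 6729.7 and 7211 normalized counts, with replicate 6 the highest, and the log2 fold change was −0.10 (SE 0.03, limma adjusted p = 0.0138).

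The count of calls again rested on single libraries. It was 19 higher and 1 lower without replicate 1 of 1 % CTRL, which enters only the shared estimate of spread (10.7 % of all genes higher and 13.1 % lower, 23.9 % in all). It was 11 higher and 1 lower without replicate 6 of 5 % CTRL (9.25 % and 12.4 % of all genes), 6 higher and 1 lower without replicate 3 of 1 % STIM (9.63 % and 12 %), and 1 higher and 1 lower without replicate 1 (8.9 % and 10.4 %) or without replicate 3 (8.15 % and 10.2 %) of 5 % CTRL. With the length slope as covariate, 9 members were higher and 3 lower (11.9 % and 12.6 % of all genes), and the median fell to 0.02. Without the 4 libraries with a slope over 0.03, which left 4 libraries of 5 % CTRL, it was 0.05, with 8 higher and 2 lower (10.1 % and 11 % of all genes). The length slope comes from the same counts and differed between these groups, with a mean of −0.016 in 5 % STIM and 0.010 in 5 % CTRL. An effect of stimulation and a length trend of other origin thus cannot be told apart in the fit with this covariate. Under scaling to equal totals, 7 were higher and none lower (12.8 % and 7.79 % of all genes).

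The third comparison set stimulation under 1 % O2 against stimulation under 5 % O2. In 1 % STIM against 5 % STIM, 1 member was higher and 6 were lower (limma, adjusted p under 0.05), against 57.4 % of all genes tested, 29 % higher and 28.4 % lower. Atp5g2, Atp5mpl, Ndufb6, Atp5l, Cox7a2l and Ndufs4 fell and Ndufb2 rose. The median log2 fold change was −0.11 over the members and −0.00 over all genes. Without replicate 3 of 1 % STIM, the library of this comparison with a steep slope, it was −0.04 over the members, with 1 higher and 4 lower (28.3 % and 27.9 % of all genes), and without the 4 libraries with a slope over 0.03 it was −0.04 as well, with 2 higher and 7 lower (29.5 % and 29.1 %). By complex, with all libraries, it was −0.09 in complex I, −0.03 in complex II, −0.08 in complex III, −0.15 in complex IV and −0.06 in complex V. With the length slope as covariate, these medians were −0.01, −0.02, 0.02, 0.0006 and 0.01. With the slope from transcript lengths they were −0.07, −0.03, −0.05, −0.10 and −0.03. In 4 members, Ndufa4, Ndufs4, Cox7a2l and Atp5mpl, every 1 % STIM library lay below every 5 % STIM library, where this held for 18.7 % of all genes tested, out of 37.3 % in either direction.

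Cox7a2l had the smallest adjusted p of these. Its normalized counts in 1 % STIM were 1138, 1288 and 1395 (lowest, median and highest), all below the 5 % STIM libraries given above. The log2 fold change was −0.22 (SE 0.04, limma adjusted p = 9.79e-05), and the call was kept in all 24 fits that left out 1 library and in all 11 alternatives. Atp5mpl, which encodes a small membrane subunit of ATP synthase (chromosome 12, 111961375 to 111966977), had 653, 669.8 and 722 in 5 % STIM and 427, 559 and 644 in 1 % STIM, also without overlap. Its log2 fold change was −0.30 (SE 0.12, limma adjusted p = 0.0323), kept in 9 of 11 alternatives and in 20 of 24 fits that left out 1 library. The adjusted p was highest without replicate 3 of 1 % STIM (limma adjusted p = 0.0909).

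Atp5g2, one of 3 genes for the c subunit of the ATP synthase rotor, had 64.4, 97.0 and 170.6 in 5 % STIM and 61.4, 71.4 and 92.6 in 1 % STIM. Replicates 1 and 6 of 5 % STIM were high, and the groups overlapped. The log2 fold change was −0.53 (SE 0.18, limma adjusted p = 0.0157), but 35.8 % of its words occur in other genes, mainly a transcribed pseudogene, so that its count is uncertain. Ndufb6, a membrane arm subunit of complex I, had 369, 394 and 453 in 5 % STIM and 259.9, 338 and 415 in 1 % STIM, with a log2 fold change of −0.26 (SE 0.11, limma adjusted p = 0.0448). Its call was kept in 6 of 11 alternatives and in 11 of 24 fits that left out 1 library, and 27.8 % of its words occur in Smim27. Ndufs4, an accessory subunit of the NADH-oxidizing arm, and Atp5l, the g subunit of ATP synthase, both named after their values were seen, had log2 fold changes of −0.17 (limma adjusted p = 0.00534) and −0.24 (limma adjusted p = 0.0119).

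Ndufb2 was the member that rose, with 192, 227 and 257 normalized counts in 5 % STIM and 222, 256 and 279 in 1 % STIM. The groups overlapped, and the log2 fold change was 0.19 (SE 0.07, limma adjusted p = 0.029). This call was kept in 20 of 24 fits that left out 1 library. Ndufv3, which was not called here (0.16, limma adjusted p = 0.175), was higher with the length slope as covariate (0.28, limma adjusted p = 5.51e-07), with the slope from transcript lengths (0.19, limma adjusted p = 7.54e-05) and without the 4 libraries with a slope over 0.03 (0.22, limma adjusted p = 0.000806). Without replicate 6 of 5 % STIM no member was higher and 4 were lower (28.3 % and 27.6 % of all genes), and without replicate 1 of 1 % CTRL 1 was higher and 12 were lower (29.7 % and 29.3 % of all genes tested, 59 % in all). Under scaling to equal totals the split turned to 11 higher and 2 lower (37.6 % and 21.9 % of all genes), although the median of the members stayed below 0 (−0.04, against 0.07 over all genes). With the length slope as covariate it was 5 and 5 (29.9 % and 29.5 % of all genes), with the median at 0.0049, and with the slope from transcript lengths 2 and 24 (30.2 % and 30.3 %), with the median at −0.07. Ndufb8, whose protein the study blotted, reversed from −0.01 (limma adjusted p = 0.907) to 0.10 (limma adjusted p = 0.0171) with the exonic length slope as covariate.

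**Figure D4:**
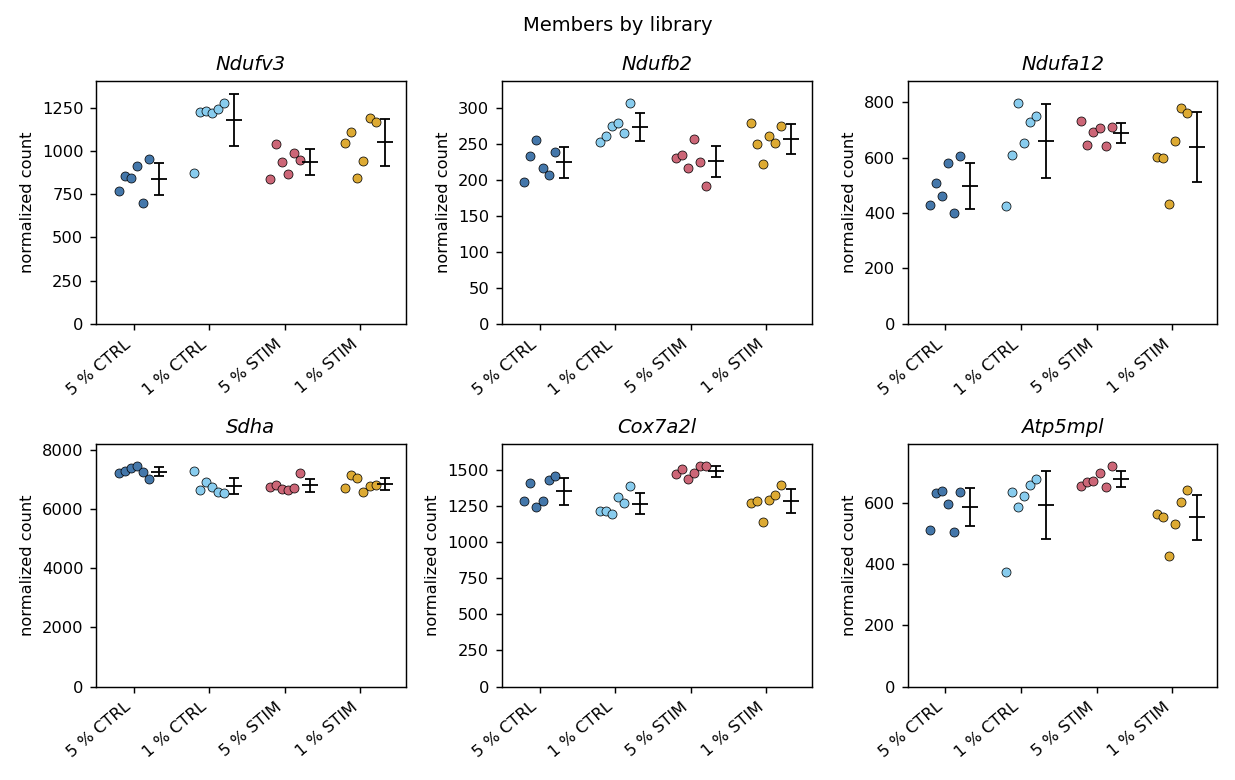
Normalized counts (vertical axes, starting at 0) of 6 members in each library, with the mean and SD of each group of 6 beside the points. Replicate 1 of 1 % CTRL is the lowest of its group in Ndufv3, Ndufa12 and Atp5mpl, and in Cox7a2l the 5 % STIM libraries lie above all libraries of 1 % STIM.

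In the fourth comparison, 1 % STIM against 1 % CTRL, no member was called by limma, where 22.3 % of all genes tested were, 11.5 % higher and 10.8 % lower. At an unadjusted limma p under 0.05, 1 member passed (Ndufs8), against 4710 of the 14541 genes tested. Of the members, edgeR, DESeq2 and voom called none. No member had groups without overlap, against 11.2 % of all genes tested (5.29 % higher and 5.91 % lower). The median log2 fold change of the members was −0.03, and leaving out 1 library moved it from −0.10 to 0.016, above 0 without replicate 6 of 1 % CTRL or replicate 3 of 1 % STIM. Without replicate 1 of 1 % CTRL it was −0.10, and 5 members were lower (Ndufa4, Ndufs8, Ndufv3, Cox7b and Atp5mpl), where 25.8 % of all genes were called, 14.1 % higher and 11.7 % lower. Without the 4 libraries with a slope over 0.03, 3 members were lower (11 % of all genes).

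The interaction, the response to stimulation under 1 % O2 minus that under 5 % O2, tests whether the responses differed. No member passed by limma, where 11.3 % of all genes tested did, 5.88 % higher and 5.43 % lower. At an unadjusted limma p under 0.05, 13 members passed, against 3590 of the 14541 genes tested. Of the members, edgeR and voom called none, and DESeq2 called 1 higher and 1 lower (share of all genes not taken). The median was −0.16 over the members (0.01 over all genes), with −0.17 in complex I, −0.03 in complex II, −0.11 in complex III, −0.24 in complex IV and −0.15 in complex V. Without replicate 1 of 1 % CTRL, 22 members were lower and 1 (Sdha) was higher, where 15.9 % of all genes were called, 7.12 % lower and 8.8 % higher, the median was −0.24 and 15 of the 22 belonged to complex I. The largest of these was Atp5k, the e subunit of ATP synthase, at −0.94 (SE 0.26, limma adjusted p = 0.0196). Without replicate 6 of 5 % CTRL, 1 was higher and 3 were lower (6.74 % and 5.66 % of all genes), and without replicate 6 of 1 % STIM 3 were lower (5.99 %). Without replicate 3 of 1 % CTRL (5.04 %) or replicate 5 of 5 % STIM (5.35 %) 1 was lower, and without replicate 6 of 5 % STIM 1 was higher (5.96 %). Without the 4 libraries with a slope over 0.03, 1 was higher and 7 were lower (5.53 % and 5.76 %). With the length slope as covariate the median was −0.01 and none was called. The medians from complex I to V were then −0.05, 0.03, 0.04, 0.01 and 0.02.

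Gene length went with the size of the members' differences in 3 of the comparisons. In 5 % STIM against 5 % CTRL, the median log2 fold change was 0.23 over the 20 members under 1 kb of exon, 0.19 over the 29 members of 1 to 2 kb and 0.05 over the 30 longer members. Over all genes tested in these classes it was 0.07, 0.02 and −0.01. In 1 % STIM against 5 % STIM the members' medians were −0.15, −0.14 and −0.02, and those of all genes −0.07, −0.03 and 0.01. In 1 % CTRL against 5 % CTRL they were 0.14, 0.10 and 0.03, against 0.03, 0.03 and −0.01 over all genes. In these 3 comparisons the members under 1 kb differed in the direction of all genes of their class and by more. In the other contrasts the medians of all genes kept an order by length, while those of the members did not. The members had −0.021, −0.047 and −0.015 in 1 % STIM against 1 % CTRL (−0.038, −0.020 and 0.00040 over all genes). In the interaction they had −0.23, −0.27 and −0.07 (−0.09, −0.04 and 0.01 over all genes). There too the members under 1 kb differed in the direction of all genes of their class and by more. The part of RNA quality in these values was not tested.

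All 4 subunits of complex II were measured, and they varied least. Sdhb, the iron-sulfur subunit, had group means of 1203 ± 45.6 in 5 % CTRL and 1225 ± 62.3 in 1 % CTRL, against 1239 ± 36.4 in 5 % STIM and 1182 ± 89.8 in 1 % STIM (SD, n = 6 each). Its log2 fold changes in the 4 comparisons lay between −0.07 and 0.04, and none passed the test, while under scaling to equal totals it was called in 1 % CTRL against 5 % CTRL (0.11, limma adjusted p = 0.04). Sdhc and Sdhd, the membrane anchors, had log2 fold changes between −0.11 and 0.09 and between −0.03 and 0.02, and none passed in the fit reported. Sdha was called in the 2 comparisons with 5 % CTRL, which share those libraries. Other settings called further members of complex II. In 1 % STIM against 5 % STIM, 2 were higher under scaling to equal totals (37.6 % of all genes). There 1 was lower with the slope from transcript lengths (30.3 %) and 1 without replicate 1 of 1 % CTRL (29.3 %). In 1 % CTRL against 5 % CTRL, 2 were lower with the slope from transcript lengths (31.1 %).

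Of the other nuclear-encoded subunits whose proteins the study blotted, Ndufb8, Uqcrc2 and Atp5a1, none passed in the 4-group fit without a covariate. In the paper, RNA came from myotubes collected directly after stimulation, while the proteins of these subunits and of Sdhb were blotted after a period of recovery. The RNA values here therefore do not bear on protein content at that later time. Ndufb8 had normalized counts of 1360 ± 159 in 5 % CTRL and 1496 ± 219 in 1 % CTRL, against 1443 ± 82.7 in 5 % STIM and 1432 ± 130.2 in 1 % STIM (SD, n = 6 each). Uqcrc2, a core subunit of complex III, had log2 fold changes between −0.07 and 0.04. Atp5a1, the α subunit of ATP synthase, had group means of 17959 ± 601 in 5 % CTRL and 17347 ± 392 in 5 % STIM, with a log2 fold change of −0.05 (limma adjusted p = 0.182). With the length slope as covariate it was called there (−0.07, limma adjusted p = 0.0269) and in 1 % STIM against 5 % STIM (0.05, limma adjusted p = 0.044), where Ndufb8 was called as well, as given above. Without the 4 libraries with a slope over 0.03, Atp5a1 was called in 5 % STIM against 5 % CTRL (−0.07, limma adjusted p = 0.0444) and Ndufb8 in 1 % CTRL against 5 % CTRL (0.14, limma adjusted p = 0.0244). Under scaling to equal totals, Atp5a1 was called in both comparisons of O2 levels (0.08 and 0.11) and Uqcrc2 in 1 % STIM against 5 % STIM (0.11, limma adjusted p = 0.00648). Atp5b, the most abundant member, had log2 fold changes between −0.01 and 0.03.

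In complex IV, 3 pairs of an isoform of striated muscle and an isoform found in most tissues could be compared. Ratios of normalized counts hardly depend on the size factor of a library. Cox6a2, the muscle isoform, exceeded Cox6a1 in every library: the log2 ratio was 1.21 ± 0.21 in 5 % CTRL and 1.04 ± 0.18 in 1 % CTRL, against 1.18 ± 0.33 in 5 % STIM and 1.12 ± 0.19 in 1 % STIM (SD, n = 6 each), a 2.05-fold to 2.31-fold excess. In the other pairs the isoform of most tissues prevailed. The log2 ratio of Cox7a1 to Cox7a2 lay between −3.64 and −3.45 in the group means, and that of Cox8b to Cox8a between −2.55 and −2.33. The myotubes thus held more of the muscle isoform in 1 pair of 3.

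None of the 12 comparisons of these ratios passed a two-sided exact permutation test. The smallest p was 0.156 (adjusted p = 0.857 over 12 comparisons), for Cox6a2 to Cox6a1 in 1 % CTRL against 5 % CTRL, with a difference of −0.17 on the log2 scale, lower than the 5 % CTRL mean in 4 of 6 libraries. Groups of 6 allow a p of 0.00216 at the smallest. The other differences lay between −0.11 and 0.16. Cox6b2, the partner of Cox6b1, failed the filter, and nothing about muscle isoforms is read from its absence.

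**Figure D5:**
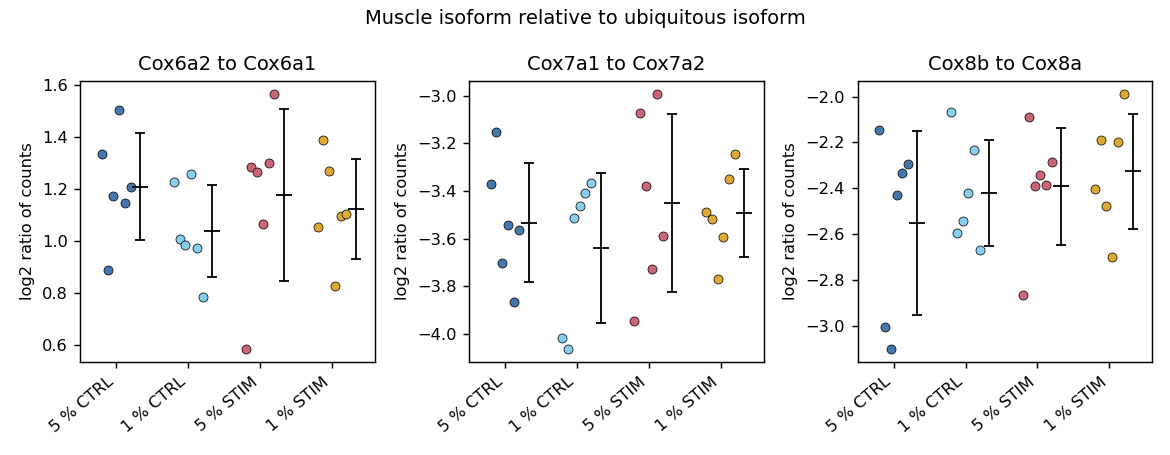
Log2 ratio of normalized counts of the muscle isoform to the isoform of most tissues in each library (vertical axes, which do not start at 0), with the mean and SD of each group of 6 beside the points. Cox6a2 lies above Cox6a1 in all 24 libraries, Cox7a1 and Cox8b lie below their partners, and the groups overlap.

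The c ring of ATP synthase is built from 1 protein encoded by 3 genes. Of their summed normalized counts, Atp5g3 gave 73.2 % ± 2.83 in 5 % CTRL and 71.3 % ± 4.11 in 1 % CTRL, against 72.2 % ± 2.74 in 5 % STIM and 71.7 % ± 3.56 in 1 % STIM (SD, n = 6 each). Atp5g1 gave between 24.7 % and 26.5 % in the group means and Atp5g2 between 1.99 % and 2.8 %. Atp5g1 rose in 1 % CTRL against 5 % CTRL, from 841, 947 and 1104 (lowest, median and highest) to 972, 1088 and 1118, with a log2 fold change of 0.17 (SE 0.06, limma adjusted p = 0.00893). Atp5g3 had a log2 fold change of 0.03 there (limma adjusted p = 0.844), and replicate 1 of 1 % CTRL was low in it, at 1978 against 3015 to 3438 in the others.

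Assembly factors insert cofactors and join subunits without being part of the finished complexes. In 1 % CTRL against 5 % CTRL, where 29.4 % of all genes were higher and 30.5 % lower, 3 of 14 factors of complex I were higher and 2 lower, 1 of 4 of complex II was higher, 2 of 6 of complex III were higher and 1 lower, 3 of 19 of complex IV were higher and 4 lower, and 2 of 3 of complex V were higher and 1 lower. Among those of complex IV that fell, Sco1, a copper chaperone, had a log2 fold change of −0.51 (limma adjusted p = 4.19e-11), and Cox10, which makes heme O, −0.48 (limma adjusted p = 2.36e-11). Tmem126b, which assembles the membrane arm of complex I, had 0.27 (limma adjusted p = 3.89e-05). In 1 % STIM against 5 % STIM (29 % and 28.4 % of all genes) the counts were 5 and 1, 1 and 0, 2 and 1, 1 and 4, and 1 and 0, from complex I to V. In 5 % STIM against 5 % CTRL (9.44 % and 12 %) no factor was higher, and 2, 1, 1, 2 and 1 were lower. Stimulation under 1 % O2 (11.5 % of all genes higher) raised 1 factor of complex I and 1 of complex IV, and in the interaction (5.88 % higher) 2 and 1 were higher.

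Of 11 genes of the mobile electron carriers (cytochrome c and coenzyme Q synthesis), 2 were higher and 2 lower in 1 % CTRL against 5 % CTRL, 1 and 2 in 5 % STIM against 5 % CTRL, 4 and 2 in 1 % STIM against 5 % STIM, and 1 and 0 in 1 % STIM against 1 % CTRL, with none in the interaction. Of all genes tested, 59.9 %, 21.4 %, 57.4 %, 22.3 % and 11.3 % were called in these contrasts. Coq3, a methyltransferase of coenzyme Q synthesis, had a log2 fold change of 0.55 (limma adjusted p = 1.06e-10) in 1 % CTRL against 5 % CTRL, and Coq8a, a kinase-like protein of the same pathway, −0.41 (limma adjusted p = 9.17e-12). Among 5 tested subunits and partners outside the symbol rule, Ndufab1, the acyl carrier protein of complex I, was higher in 1 % STIM against 5 % STIM (0.19, limma adjusted p = 0.00704), and no other was called in any comparison. Cox4i1, the main subunit IV of complex IV, had 0.01 (limma adjusted p = 0.901) in 1 % CTRL against 5 % CTRL. Ndufa4l2, a gene known to respond to hypoxia in many cells, had −0.39 (SE 0.29, limma adjusted p = 0.259). Cox4i2 failed the filter.

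Of the 13 subunits encoded in mitochondrial DNA, 8 were lower and none higher in 1 % CTRL against 5 % CTRL, where 30.5 % of all genes tested were lower and 29.4 % higher. Of the same 13, 7 were lower and none higher in 1 % STIM against 5 % STIM (28.4 % and 29 % of all genes). Among those in the first comparison were mt-Atp6 (−1.22, limma adjusted p = 2.68e-05) and mt-Nd1 (−0.94, limma adjusted p = 1.3e-15). mt-Co1, the catalytic subunit of complex IV, had −0.28 (limma adjusted p = 3.76e-06) there and −0.25 (limma adjusted p = 2.23e-05) in 1 % STIM against 5 % STIM. In 5 % STIM against 5 % CTRL 3 were lower (12 % of all genes), and in 1 % STIM against 1 % CTRL 1 was higher and 1 lower (11.5 % and 10.8 %), with 2 higher in the interaction (5.88 %). mt-Nd3 and mt-Co3 varied between libraries, with standard errors of 2.03 and 1.03, so that little can be read from them. Exon sequence shared with other genes was searched for the nuclear-encoded members only, so it is not known for these 13. The list medians were −0.34 and −0.49 in the 2 comparisons of O2 levels, where those of the nuclear-encoded members were 0.05 and −0.11; the difference between the lists was not tested.

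Markers of the cells moved with some of these comparisons. Of 10 myotube markers, 7 were lower in 1 % CTRL against 5 % CTRL, 3 in 5 % STIM against 5 % CTRL, 6 in 1 % STIM against 5 % STIM and 2 in 1 % STIM against 1 % CTRL, where 30.5 %, 12 %, 28.4 % and 10.8 % of all genes tested were lower, and 1 was higher in the interaction (5.88 %). Their summed normalized count was 491567 to 539886 in 5 % CTRL and 431645 to 486728 in 1 % CTRL, against 447364 to 519236 in 5 % STIM and 425952 to 469824 in 1 % STIM. The 6 myoblast and cycling cell markers summed to 3159 to 3540 in 5 % CTRL and 3588 to 5569 in 1 % CTRL, against 3449 to 4022 in 5 % STIM and 3871 to 4697 in 1 % STIM, and 3 were higher and 2 lower in both comparisons of O2 levels (29.4 % and 29 % of all genes higher), 2 and 1 in 5 % STIM against 5 % CTRL, 1 and 1 in 1 % STIM against 1 % CTRL, and none in the interaction. Tubb3, the marker of other tissues that was tested, was lower in all 5 contrasts (log2 fold changes of −1.02 to −0.24). The part of these shifts in the members' values was not tested, and in bulk RNA fewer cells of a type and less RNA per cell cannot be told apart.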

How the data were processed

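Bulk mRNA of 24 libraries was read in groups given by the sample titles. The authors aligned single-end reads of stranded libraries to GRCm38 with STAR 2.5.4b and counted genes with RSEM 1.3.0 at default settings, which do not use strand. The deposited values (signal) are counts per gene that the authors divided by a DESeq2 size factor for each library. These factors were 0.955 to 0.992 under 5 % O2 and 1.02 to 1.05 under 1 % O2. A second deposited table holds the authors' own fold changes and p-values and was not used. Whole reads were recovered from the step of each library (100 % of values whole within 0.05).

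Genes with at least 10 normalized counts in at least 6 libraries entered 1 fit of 4 groups on log2(normalized count + 1) with limma 3.58.1 in R 4.3.3 (trend, robust, no block), and adjusted p under 0.05 was called. Fold changes are on that scale, which understates changes of low genes. Alternatives used all genes without a filter, a pseudocount of 10, the replicate number as a block, libraries rescaled to the same total, edgeR 4.0.16, DESeq2 1.42.0 and voom on whole reads, the length slope as covariate, the length trend removed, and each library left out. After seeing the data, a fit without the 4 libraries with a slope over 0.03 and a slope from the median length of coding transcripts were added. The fit across genes was tried on simulated counts that held no trend with gene length between libraries, so this check does not cover that trend. Lengths and coordinates came from GENCODE M21, in which 99.5 % of genes were found, and shared exon sequence was searched in words of 75 bases.

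Members, the 11 gene lists and tests were chosen with earlier results of these data known. Named genes were up to 3 called members that rose and 3 that fell most in each contrast, the highest per kilobase in each complex (1 gene is not reported here), isoform pairs, c subunit genes, blotted subunits and complex II.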

Additional observations from a re-analysis of the deposited data

Results flagged for a closer look

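Within groups of 6, 13 of 144 sets of values had 1 library apart from the others by Dixon's criterion, which flags about 1 in 20 independent sets by chance. These sets share libraries and members, so their count cannot be set against that rate. Replicate 1 of 1 % CTRL accounted for most. Its mean deviation was −0.38 over all members (the others 0.05 to 0.19), −0.35 in complex I (0.07 to 0.21), −0.49 in complex III (0.02 to 0.20), −0.61 in complex IV (−0.00 to 0.29) and −0.27 in complex V (0.03 to 0.12), and its length slope was 0.0945 (−0.0367 to −0.0125). In the same library Atp5g3 had 1978 normalized counts (the others 3015 to 3438), Atp5mpl 375 (588 to 679.5), Cox6a2 652 (1203 to 1290.0), Ndufb8 1066 (1507 to 1663) and Ndufv3 874 (1219.6 to 1277).

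Outside that library, Cox6a2 was low in replicate 5 of 5 % CTRL, at 832 (the others 1174 to 1346). Sdha was high in replicate 6 of 5 % STIM, at 7211 (6640.2 to 6807). The cause was not tested.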

How the results depend on the processing

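The 5 comparisons of the members, the 12 isoform comparisons and 27 named genes, 26 of them tested, were recomputed under each alternative. Counts of members called are followed by the share of all genes called, where it was taken. In 1 % CTRL against 5 % CTRL the count was 8 in the fit reported (59.9 %) and 20 with libraries rescaled to the same total (62.2 %). It was 13 without the 4 libraries of steep slope (58.6 %) and 21 with the transcript length slope (61 %). In 5 % STIM against 5 % CTRL, 4 (21.4 %) became 7 after rescaling (20.6 %), 13 with DESeq2 and 12 with the length slope (24.5 %). This count was 10 with the length trend removed, 10 without the 4 libraries (21.1 %) and 14 with the transcript length slope (24.3 %). In 1 % STIM against 5 % STIM, 7 (57.4 %) became 4 without a filter, 13 after rescaling (59.5 %) and 26 with the transcript length slope (60.4 %). In 1 % STIM against 1 % CTRL, 0 (22.3 %) became 2 with either slope (25.7 % exonic and 25.3 % transcript) and 3 without the 4 libraries (23.3 %). In the interaction, 0 (11.3 %) became 2 with DESeq2, 1 with the trend removed and 8 without the 4 libraries (11.3 %). Its median of −0.16 became −0.014 with the exonic and −0.016 with the transcript length slope. The share of all genes was not taken for DESeq2, the removed length trend, the fit without a filter or the replicate block.

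Leaving out 1 library moved the counts to 6 to 28 (1 % CTRL against 5 % CTRL), 2 to 20 (5 % STIM against 5 % CTRL), 4 to 13 (1 % STIM against 5 % STIM), 0 to 5 (1 % STIM against 1 % CTRL) and 0 to 23 (interaction), and the medians to 0.02 to 0.16, 0.10 to 0.17, −0.14 to −0.04, −0.10 to 0.02 and −0.24 to −0.11. Isoform differences changed sign in 10 such fits: Cox6a2 to Cox6a1 ranged from −0.11 to 0.088 (5 % STIM against 5 % CTRL) and −0.17 to 0.022 (1 % STIM against 5 % STIM), Cox7a1 to Cox7a2 from −0.0094 to 0.18 and −0.14 to 0.049, and Cox8b to Cox8a from −0.028 to 0.14 in the last comparison. None was called.

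With the replicate block, the count in 5 % STIM against 5 % CTRL was 8 and in the interaction 2, and the others were within 1.5 times. The replicate numbers did not pair the samples: the deviations of same-numbered libraries from their group means correlated between −0.148 and 0.155, and 2 of 36 pairs were over 0.1. Among named genes, 1 result reversed: Ndufb8 in 1 % STIM against 5 % STIM with the length slope (0.10). Beyond what the alternatives construct, the cause was not tested. The ratio of Cox6b2 to Cox6b1 was planned and not run, since Cox6b2 failed the filter. Depth limits most the members with low counts, such as Ndufb4 and Atp5g2.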
